A study of Mus musculus
Rattus norvegicus and Rattus norvegicus and Mus musculus with 18 samples.

Results

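The genes described are 10 genes of transforming growth factor beta (TGF-beta) and activin signaling: the ligands Tgfb1, Tgfb2 and Tgfb3, the latent TGF-beta binding proteins Ltbp1 and Ltbp2, the receptors Tgfbr1 and Tgfbr2, the activin A subunit Inhba, the activin antagonist Fst (follistatin), and Tgfbi, a secreted matrix protein whose gene is induced by TGF-beta. They were found by gene symbol in the deposited mouse and rat tables. All 10 were present once in each table, which made 20 of 32548 gene entries (10 of 17672 mouse genes and 10 of 14876 rat genes).

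The series is a xenograft of mouse tumor cells in rats, so each tumor library holds tumor RNA of 1 species and host RNA of another. The 4T1 line is an established mouse mammary carcinoma line, and its cells were placed in the mammary fat pad of SRG rats, a strain bred without functional Rag2 and Il2rg that lacks mature T, B and NK cells and keeps its myeloid and stromal cells. No animal was treated, every tumor-bearing sample carries the genotype tag wildtype, and tissue was taken 27 days after transplantation; the rats' age was not among the labels. The necrotic core and the non-necrotic rim of the same 5 tumors were dissected (Rat3867, Rat3869, Rat3875, Rat3876 and Rat3877), and lung was taken from 5 rats (Rat3789 and all of these except Rat3867). A single pellet of cultured 4T1 cells and 2 libraries of rat mammary gland without a transplant were the references for each species. Polyadenylated RNA was sequenced, and levels are in CPM (reads per unit of library size, on the deposited scale), scaled within each species, so that a mouse level is not compared with a rat level.

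TGF-beta ligands are secreted in a latent complex, in which an LTBP tethers the ligand to the matrix until integrins or proteases release it. Released ligand binds Tgfbr2, which phosphorylates Tgfbr1, and Tgfbr1 phosphorylates Smad2 and Smad3. Activin A, the dimer of the Inhba product, signals through its own receptors to the same SMADs, and follistatin binds activin and blocks it. In tumors these ligands are known for restraining the growth of epithelial cells early, and for promoting invasion, matrix deposition by fibroblasts and immune suppression later.

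Library facts that touch the results are as follows. The tumor and lung libraries held 15346400 to 26669410 mouse reads and 3146720 to 10015352 rat reads. Mouse reads made up 85.7% ± 1.51 (SD, n = 5) of the total in core, 77.3% ± 6.51 in rim and 70.6% ± 4.85 in lung. The library labelled lung of Rat3789 went against its label: 6 of 6 rat lung epithelial markers together reached 19.0 CPM there, 8731 to 15954 CPM in the other 4 lungs and 10.3 to 109 CPM in the rims. Results on lung include that library unless said otherwise. For a part of the members and for the counts of genes passing they are also given without it. Single genes of the pathway lists are given for lung only with it. Of 6 host lymphocyte markers, 5 are not listed in the rat table and only Cd4 is.

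Markers of host cell types differed between the tissues. Summed over the 7 of 8 fibroblast markers in the rat table, the level was 3408 to 11401 CPM in core, 32749 to 61023 CPM in rim and 2357 to 6615 CPM in lung without Rat3789, whose library had 26562 CPM. Macrophage markers, 8 of 8, summed to 10998 to 15700 CPM in core and 8668 to 12624 CPM in rim. In lung without Rat3789 they summed to 11889 to 14522 CPM, and to 29460 CPM in Rat3789. Neutrophil markers, 5 of 5, summed to 168 to 1185 CPM in core, 121 to 171 CPM in rim and 2170 to 5264 CPM in lung without Rat3789, which had 417 CPM. Pericyte and smooth muscle markers, 6 of 6, summed to 604 to 1595 CPM in core, 1774 to 2898 CPM in rim and 593 to 773 CPM in lung without Rat3789, which had 513 CPM. These differences in the makeup of the host RNA run alongside every rat result below, and their part in those results was not tested. In bulk RNA, fewer cells of a type and less RNA per cell cannot be told apart.

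A small share of reads is placed in the wrong species. From the reads that rat gland libraries gave on a mouse gene and the pellet gave on a rat gene, each relative to the same gene of the right species, the expected misplaced share was computed for every member and library. Where that share is larger in the group with the lower level, taking these reads out widens the difference and is no check of it. Shares that weigh on results include these. In rat core it was 22.2 to 83.7% of Ltbp1 reads and 18.0 to 85.5% of Ltbp2 reads. In mouse rim it was 7.77 to 47.2% of Fst reads, and in rat core 5.93 to 33.3%. For mouse Inhba it was 18.9 to 35.9% in rim, from a rate that rests on few reads, since the gland libraries held 8 and 18 reads of rat Inhba and 14 and 37 reads placed on mouse Inhba. For rat Inhba it was 9.52 to 86.8% in lung, highest in Rat3789. For mouse Inhba it was also 12.2 to 26.1% in core and 2.97 to 27.1% in lung. For mouse Ltbp2 in lung it was 1.77 to 21.6%, lowest in Rat3789. In rat core it was 5.92 to 22.0% for Tgfb3 and 9.87 to 21.2% for Inhba. Rates for rat Ltbp1, Ltbp2 and Fst also rest on few reads, with 19, 7 and 2 pellet reads placed on them.

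In the tumor cells, 4 members differed between core and rim. Tgfbr1 and Fst were higher in core, and Inhba and Tgfbi were lower. That is 4 of 10 members at an adjusted p under 0.05 (limma, rat as a block, Benjamini-Hochberg over 13070 mouse genes), where 19.8% of all mouse genes passed, 10.1% as higher and 9.63% as lower. Fst is counted among the 4 although only 1 of 5 rims reached 1 CPM, so it entered the test through the cores and had to differ. The 3 ligands, both binding proteins and Tgfbr2 did not pass. The median log2 difference of the 10 members was 0.31, beside 0.01 over all mouse genes tested.

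Markers in the mouse table moved with these tissues too. Mammary epithelial markers, 6 of 6, summed to 2270 to 3739 CPM in core, 3995 to 4849 CPM in rim and 1875 to 2635 CPM in lung without Rat3789 (2817 CPM there). Of the 5 tested, 4 were lower in core, Krt14 by most (-3.98 ± 0.53, adjusted p = 0.00263), and 5 were lower in lung. Genes of the fibroblast list, 7 of 8, summed to 107 to 445 CPM in core and 61.6 to 183 CPM in rim, with 3 of 4 higher in core, Dcn among them (5.47 ± 0.55, adjusted p = 0.000914). Of the 2 genes tested from the pericyte and smooth muscle list, Pdgfrb was higher in core (6.05 ± 0.80) and Acta2 was lower (-1.69 ± 0.32, adjusted p = 0.00935). Pdgfrb averaged 0.216 CPM in rim, so it entered the test through the cores and had to differ. Acta2 averaged 0.969 CPM in core, near the filter of 1 CPM. Adipocyte markers are not listed in the mouse table. The part of these shifts in the results on tumor cells was not tested.

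**Figure D1:**
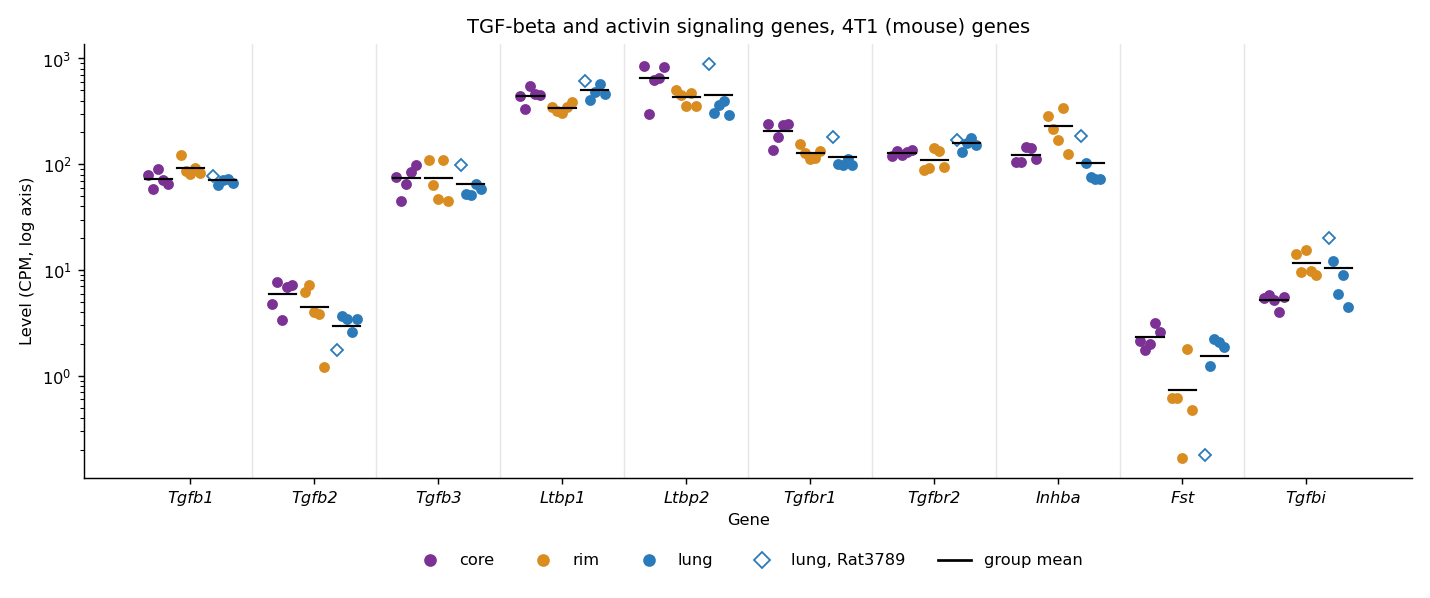
Level of the 10 mouse (4T1) genes in each core, rim and lung library (CPM, log axis; 1 point per library, line at the group mean, open diamond the library labelled lung of Rat3789). Tgfbi in core, 3.99 to 5.85 CPM, lies below every rim library, and Fst in the lung of Rat3789 lies at 0.178 CPM while the other 4 lungs lie between 1.25 and 2.24.

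Tgfb1, the ligand most studied in wound repair and immune control, stood in the tumor cells at 79.2, 58.5, 90.2, 71.2 and 65.3 CPM in the cores of Rat3867, Rat3869, Rat3875, Rat3876 and Rat3877, the order kept for all values of core and rim below. The rims of the same rats had 123, 86.0, 80.4, 91.7 and 82.8 CPM. Core was below rim in 4 of 5 rats, but the groups overlapped and the log2 difference of -0.35 ± 0.12 (SE) did not pass (adjusted p = 0.0828; 0.0372 without Rat3875, range 0.0372 to 0.263). Lungs had 64.0, 71.0, 72.6 and 66.1 CPM in Rat3869, Rat3875, Rat3876 and Rat3877, and 78.0 CPM in Rat3789. All 5 lungs lay below all 5 rims, a separation that 13.5% of mouse genes showed, and the log2 difference of lung from rim was -0.39 ± 0.11 (adjusted p = 0.0349). That call was lost without Rat3869 (0.106), Rat3875 (0.0612), Rat3876 (0.0961) or Rat3877 (0.0635), and adjusted p ran from 0.00923 to 0.168 over all alternatives. Without Rat3789 the difference was -0.42 ± 0.12 (adjusted p = 0.0293).

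Tgfb2, the ligand with the strongest need for its coreceptor, was scarce in the tumor cells, at 3.35 to 7.64 CPM in core, 1.22 to 7.23 in rim and 1.77 to 3.71 in lung. The 3 groups overlapped and neither difference passed (core minus rim 0.56 ± 0.40, adjusted p = 0.357; lung minus rim -0.42 ± 0.42, adjusted p = 0.517). Tgfb3, another isoform that binds the same receptors, had 75.7, 44.7, 65.5, 84.6 and 97.5 CPM in core and 109, 63.4, 47.4, 109 and 44.8 CPM in rim. The rims spread as widely as the cores, and the difference was 0.04 ± 0.24 (95% interval -0.50 to 0.58, adjusted p = 0.928). The lungs held 50.7 to 99.1 CPM of Tgfb3, the highest being Rat3789, and did not pass against rim (-0.14 ± 0.28, adjusted p = 0.764).

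Per kilobase of merged exons in GENCODE M21 (GRCm38), which lets genes be compared within the mouse table, Tgfb3 and Tgfb1 were the main TGF-beta ligand transcripts of 4T1 cells. In rim, Tgfb3 stood at 22.1 ± 9.52 CPM per kilobase (SD, n = 5), Tgfb1 at 18.4 ± 3.48 and Tgfb2 at 0.779 ± 0.404. Tgfb3 made up 44.3 to 63.2% of the ligand total in the rims and 50.6 to 67.0% in the cores; Tgfb1 made up 35.5 to 55.0% and 30.1 to 47.3%. Tgfb1 and Tgfb3 did not differ beyond the spread of the rims, and Tgfb2 lay below both in all 15 libraries. Tgfb3 overlaps Ttll5, a coding gene on the opposite strand and, with the strand mode of featureCounts not stated, its level is uncertain.

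Both latent binding proteins were abundant in the tumor cells. Per kilobase, Ltbp2 had the highest mean of the members in rim, at 52.4 ± 8.52 CPM (SD, n = 5), before Inhba at 35.6 ± 13.4 and Ltbp1 at 32.1 ± 3.09, and these last did not differ beyond their spread. Ltbp1, which binds latent TGF-beta covalently, had 447, 331, 548, 459 and 447 CPM in core and 349, 317, 306, 351 and 389.8 CPM in rim. Core was higher in 5 of 5 rats, by 0.37 ± 0.12 on the log2 scale, and this did not pass (adjusted p = 0.0602). It passed with DESeq2 (0.0311), without Rat3869 (0.0435) and in a fit of all 15 libraries (0.0494), in a range of 0.0311 to 0.191. The lungs had 406, 486, 579, 460.3 and, in Rat3789, 606 CPM. Every lung lay above every rim, and the log2 difference of 0.56 ± 0.11 passed (adjusted p = 0.00689), as it did without Rat3789 (0.49 ± 0.11, adjusted p = 0.0109).

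Ltbp2, a relative of Ltbp1 that sits on fibrillin fibers and does not bind the latent ligand, had 846, 301, 619, 652 and 835 CPM in core and 508, 450.1, 359, 474 and 352 CPM in rim. Rat3869 was the exception to higher levels in core, with 4 of 5 rats higher and a log2 difference of 0.53 ± 0.22 (adjusted p = 0.127). Without Rat3869 the difference passed (adjusted p = 0.0105), as it did with DESeq2 (0.0411), and the range over all alternatives was 0.0105 to 0.441. In lung the library of Rat3789 stood apart at 892 CPM, the other 4 lungs having 294 to 399 CPM. The difference from rim was -0.05 ± 0.26 with that library (adjusted p = 0.917) and -0.33 ± 0.13 without it (adjusted p = 0.0984).

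Tgfbr1, the type I receptor kinase (chr4:47353222-47414931, GRCm38, plus strand), had 240.2, 135, 183, 233 and 243 CPM in core and 155, 128, 113, 114 and 133 CPM in rim. Core was higher in all 5 rats, least in Rat3869, whose core reached only the range of the rims. The mean was 207 ± 46.8 CPM (SD, n = 5) in core and 129 ± 17.1 in rim, a 1.58-fold difference (log2 0.66 ± 0.13 SE, adjusted p = 0.0113). It did not pass when Rat3876 and Rat3877 were both left out (adjusted p = 0.0748), the highest of the alternatives, the lowest being 0.000145. Tgfbr2, the type II kinase that binds ligand first, had 119 to 136 CPM in core and 88.0 to 142 CPM in rim, and did not pass (0.25 ± 0.13, adjusted p = 0.217).

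In lung it was Tgfbr2 that was higher. It had 131, 159.7, 176, 153 and 169 CPM and was 1.46-fold higher than in rim (log2 0.54 ± 0.14, adjusted p = 0.0224), in all 4 rats with both tissues, although the groups overlapped. Without Rat3789 it still passed (0.51 ± 0.16, adjusted p = 0.0378), but not without Rat3867 (0.0556), Rat3869 (0.0524) or Rat3877 (0.0663), in a range of 0.00735 to 0.126. Tgfbr1 in lung had 101, 98.5, 111 and 98.9 CPM, and 179.8 CPM in Rat3789. All lungs but that of Rat3789 lay below every rim. The difference was -0.16 ± 0.16 with it (adjusted p = 0.515) and -0.32 ± 0.10 without it (adjusted p = 0.0395).

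Inhba, which encodes the subunit of activin A (chr13:16011851-16031621, plus strand), had 106, 104, 146, 144 and 113 CPM in core and 288, 216, 171, 337 and 126 CPM in rim. Rim was higher in 5 of 5 rats, with the smallest gap in Rat3877, whose rim lay within the range of the cores. The means were 122 ± 20.7 and 228 ± 85.8 CPM (SD, n = 5), and the log2 difference was -0.82 ± 0.19 (SE, adjusted p = 0.0205). Leaving out Rat3867 (0.0695), Rat3869 (0.0599) or Rat3876 (0.0675) ended this call, in a range of 0.000147 to 0.0695. With the expected rat reads of Inhba taken out it was -0.70 (adjusted p = 0.0389).

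The lungs had 103, 75.6, 72.1 and 72.7 CPM of mouse Inhba, and 186 CPM in Rat3789. Without that library all lungs lay below all rims, 2.68-fold on average (log2 -1.42 ± 0.25, adjusted p = 0.00388). With it the difference was -1.18 ± 0.30 (adjusted p = 0.0193), and it was lost without Rat3869 (0.0700), Rat3875 (0.0596) or Rat3876 (0.0928), and when expected rat reads were taken out (-0.90, adjusted p = 0.0915). The range over the alternatives was 0.00388 to 0.105.

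Fst, which encodes the activin antagonist (chr13:114452290-114458951, minus strand), was the scarcest member in the tumor cells per kilobase (0.160 ± 0.134 CPM in rim). The cores had 2.15, 1.76, 2.02, 3.15 and 2.63 CPM, from 39 to 63 reads each. The rims had 0.624, 0.623, 0.167, 1.78 and 0.474 CPM, from 12, 13, 3, 31 and 9 reads. Core was higher in 5 of 5 rats, and only the rim of Rat3876 reached the range of the cores. The log2 difference was 2.03 ± 0.40 (SE, adjusted p = 0.0106; 0.000717 to 0.0333 over the alternatives), and 2.32 with the expected rat reads taken out. Of the rims 1 of 5 reached 1 CPM, so Fst entered the test through the cores and had to differ; it also overlaps an antisense gene.

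In lung, mouse Fst had 1.25, 2.24, 2.11 and 1.88 CPM, and 0.178 CPM in Rat3789, from 4 reads. In all 4 rats with both tissues lung was above rim. The difference did not pass with Rat3789 (1.04 ± 0.75, adjusted p = 0.348) and was 1.71 ± 0.55 without it (adjusted p = 0.0484), where Fst again entered the test through the group where it is high, with 4 of 4 lungs and 1 of 5 rims at 1 CPM. Of the reads in the other 4 lungs, 11.1 to 27.0% were expected to come from rat Fst.

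The ratio of Inhba to Fst reads within a library puts the ligand subunit beside its antagonist. Misplaced reads were not taken out of it. In the tumor cells the ratio was 43.2 to 73.1 in core and 192 to 1196 in rim. Because mouse Fst entered the test through the cores, this difference is a description and supports nothing. The 4 lungs other than Rat3789 had 34.0 to 84.0 Inhba reads per Fst read, near the cores, and the lung of Rat3789 had 1173. The highest ratios rest on 3 and 4 Fst reads.

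**Figure D2:**
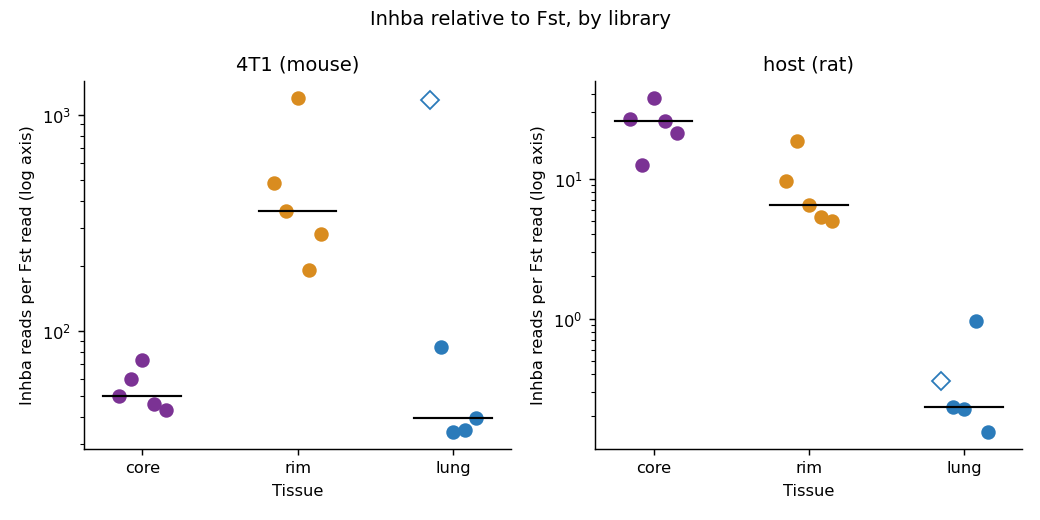
Inhba reads per Fst read in each library (log axis; left the mouse genes, right the rat genes; line at the group median, open diamond the library labelled lung of Rat3789). Mouse medians are 49.7 in core and 359 in rim, and rat medians are 25.7 in core and 6.51 in rim. Misplaced reads are not taken out, and mouse Fst entered the test through the cores, so the values are a description.

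Tgfbi, the TGF-beta-induced matrix protein (chr13:56609523-56639562, plus strand), had 5.48, 5.85, 5.19, 3.99 and 5.56 CPM in the tumor cells of the core and 14.3, 9.49, 15.5, 9.77 and 8.91 CPM in those of the rim. Every core lay below every rim, which 14.3% of mouse genes showed. The difference was 2.19-fold (log2 -1.13 ± 0.19, adjusted p = 0.00560) and passed in all 17 alternatives (highest adjusted p 0.0286). The lungs spread from 4.53 to 20.01 CPM, the highest in Rat3789, and did not pass against rim with it (-0.33 ± 0.35, adjusted p = 0.541) or without it (-0.61 ± 0.29, adjusted p = 0.146).

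Against the cultured pellet, a single library with no replicate check, most members had a higher mean in rim. The share of all mouse genes above the pellet was not computed, so these ratios are a description and no result about the members. On total-count scaling the mean of the rims was 8.28 times the pellet for Tgfbi (1.40 CPM in the pellet, 95% exact binomial interval 1.00 to 1.89, counting error only). It was 7.25 times for Ltbp2, 3.03 times for Inhba, 2.86 times for Tgfb3 and 2.44 times for Ltbp1. Ratios were 2.05 for Tgfb1, 1.79 for Tgfbr1 and 1.35 for Tgfbr2. Tgfb2, at 0.912 times, and Fst, at 0.387 times, were the members whose rim mean lay below the pellet. Fst had 1.84 CPM in the pellet (1.38 to 2.40, 54 reads), inside the range of the cores on the same scale, 1.68 to 3.14 CPM.

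In the rat host, 5 members differed between core and rim, and all 5 were lower in core: Tgfb3, Ltbp1, Ltbp2, Fst and Tgfbi. Of all rat genes tested, 37.6% passed the same test (limma, rat as a block, 13559 genes), 17.5% as higher and 20.1% as lower. A count of 5 of 10 lies close to the share for both directions, but all 5 were lower, where the share was 20.1%. Whether the members lean lower than rat genes at large was not tested. Inhba, Tgfb1, Tgfb2 and both receptors did not pass. The median log2 difference of the 10 host genes was -0.97, beside 0.00 over all rat genes.

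**Figure D3:**
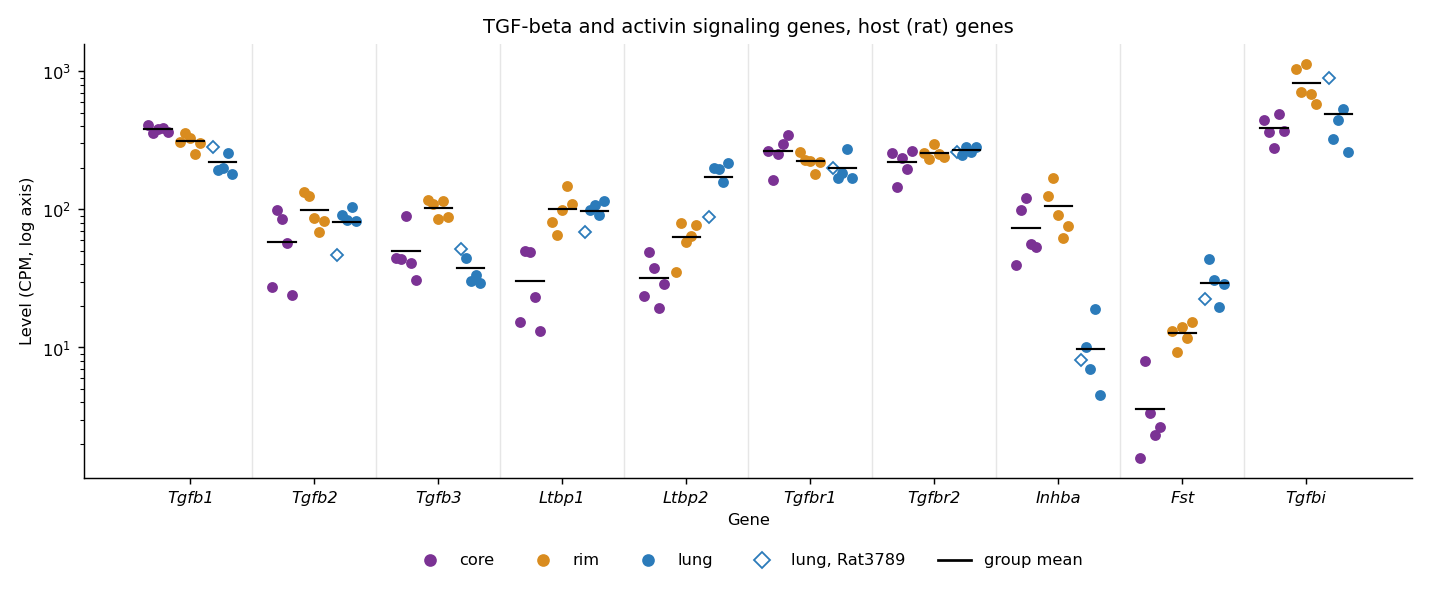
Level of the 10 rat (host) genes in each core, rim and lung library (CPM, log axis; 1 point per library, line at the group mean, open diamond the library labelled lung of Rat3789). Inhba in lung, 4.49 to 19.1 CPM, lies below all cores and rims, and Fst is lowest in core, at 1.58 to 8.04 CPM.

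Host Tgfb1, made by macrophages, platelets and many stromal cells, was the one ligand with higher values in core. It had 409, 357, 382, 389 and 365 CPM in core and 306, 359.7, 329.5, 251 and 304 CPM in rim. Only Rat3869 had core no higher than rim, and the log2 difference of 0.30 ± 0.10 fell just short of the threshold (adjusted p = 0.0507). It passed without Rat3869 (0.0230), without the block (0.0329), with a filter on mean reads (0.0493) and with 1 added before the logarithm (0.0496), in a range of 0.0230 to 0.301. The lungs had 194, 198, 256 and 179 CPM, and 282 CPM in Rat3789, lower than rim (-0.50 ± 0.14, adjusted p = 0.0301; -0.59 ± 0.13 and 0.00538 without Rat3789). That call was lost on total-count scaling (0.0569), without Rat3867 (0.0607), Rat3869 (0.141), Rat3875 (0.146) or Rat3877 (0.107), and without Rat3876 and Rat3877 together (0.0930).

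The host ligand Tgfb2 had 27.6, 98.2, 85.1, 57.3 and 24.1 CPM in core and 134, 125, 86.5, 68.4 and 81.7 CPM in rim. Core was lower in 5 of 5 rats, by little in Rat3875 and by most in Rat3867, and the difference of -0.93 ± 0.32 did not pass (adjusted p = 0.0520; 0.00927 with DESeq2, 0.0389 without Rat3875, range 0.00927 to 0.160). Tgfb3 had 44.3, 43.6, 89.8, 40.6 and 30.9 CPM in core and 116, 109.6, 85.6, 116 and 87.9 CPM in rim. Rat3875 alone had no drop, and over the 5 rats Tgfb3 fell by 1.13 ± 0.22 on the log2 scale (adjusted p = 0.00520). The fall did not pass when Rat3876 and Rat3877 were both left out (adjusted p = 0.0673), the highest of the alternatives.

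In lung, host Tgfb3 had 44.2, 30.3, 33.6, 29.1 and, in Rat3789, 51.7 CPM, below every rim, a separation that 14.7% of rat genes showed. It fell by 1.47 ± 0.17 (adjusted p = 0.000300), and by 1.59 ± 0.15 without Rat3789. Host Tgfb2 in lung had 46.4 to 104 CPM and did not pass against rim (-0.28 ± 0.24, adjusted p = 0.448).

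The host binding protein Ltbp1 had 15.2, 49.9, 49.1, 23.3 and 13.2 CPM in core and 80.6, 64.8, 98.9, 147 and 109 CPM in rim. Core and rim did not overlap, as for 26.4% of rat genes, and Ltbp1 was 3.73-fold lower in core (log2 -1.90 ± 0.37, adjusted p = 0.00455). Much of what remained in core was expected to be misplaced mouse Ltbp1, up to 43.5 of 52 reads in Rat3877, and with such reads taken out the difference was -3.06 (adjusted p = 0.00838). In lung it had 68.5 to 115 CPM, and did not pass against rim (-0.02 ± 0.21, adjusted p = 0.964).

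Host Ltbp2 had 23.4, 49.0, 37.7, 19.3 and 28.9 CPM in core and 35.1, 80.3, 58.2, 64.6 and 76.4 CPM in rim. It was lower in the core of 5 of 5 rats, though the rim of Rat3867 lay among the cores (log2 -1.01 ± 0.19, adjusted p = 0.00371; -2.25 and 0.00741 with expected mouse reads taken out). In lung it was the member that was highest relative to rim, with 198, 197, 157, 218 and, in Rat3789, 88.7 CPM. Every lung lay above every rim, 2.71-fold on average (1.44 ± 0.28, adjusted p = 0.00463) and 3.16-fold without Rat3789 (1.66 ± 0.22, adjusted p = 0.000224). The call was lost when Rat3876 and Rat3877 were both left out (adjusted p = 0.0804).

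Neither host receptor passed in either comparison. Tgfbr1 had 265, 164, 249, 295 and 343 CPM in core and 182 to 260.4 CPM in rim, with a difference of 0.21 ± 0.17 (95% interval -0.17 to 0.59, adjusted p = 0.361). Tgfbr2 had 144 to 264 CPM in core and 230.1 to 296 CPM in rim, with a difference of -0.24 ± 0.12 (-0.52 to 0.04, adjusted p = 0.153). Against rim, the lungs had small differences (Tgfbr1 -0.18 ± 0.14, adjusted p = 0.417, 0.0339 without Rat3876, range 0.0339 to 0.824; Tgfbr2 0.07 ± 0.08, adjusted p = 0.591).

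Host Inhba had 39.2, 99.1, 121, 55.8 and 53.6 CPM in core and 125, 169, 91.4, 62.4 and 76.0 CPM in rim. Core was lower in 4 of 5 rats, Rat3875 being the exception, and the difference of -0.54 ± 0.25 did not pass (adjusted p = 0.124; 0.0390 without Rat3875, range 0.0390 to 0.337). The lungs had 10.1, 7.01, 19.1, 4.49 and, in Rat3789, 8.13 CPM. All lungs lay below all rims, 11.3-fold on average (log2 -3.50 ± 0.38, adjusted p = 0.000190; -3.48 ± 0.40 and 9.58e-05 without Rat3789; -4.35 and 0.000918 with expected mouse reads taken out). In normal gland the rat Inhba gene had 0.388 and 0.845 CPM on total-count scaling (8 and 18 reads), where the rims had 62.4 to 163 CPM on that scale. The same glands had 14 and 37 reads placed on mouse Inhba, so the gland level may be understated.

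Host Fst had 1.58, 8.04, 3.34, 2.32 and 2.65 CPM in core and 13.2, 9.20, 14.1, 11.7 and 15.3 CPM in rim. The groups did not overlap, with Rat3869 closest, and Fst was 4.12-fold lower in core (log2 -2.04 ± 0.39, adjusted p = 0.00467; -2.34 and 0.00594 with expected mouse reads taken out). The cores rest on 6 to 25 reads each, and the call was lost without Rat3876 and Rat3877 together (adjusted p = 0.0576). In lung it had 43.6, 30.8, 19.7, 28.8 and, in Rat3789, 22.6 CPM, all above every rim (1.16 ± 0.22, adjusted p = 0.00392; 1.24 ± 0.23 and 0.00190 without Rat3789). Host Inhba reads per Fst read were 12.6 to 37.9 in core, 5.0 to 18.6 in rim and 0.154 to 0.967 in lung. Misplaced reads limit these ratios. In lung 9.52 to 86.8% of rat Inhba reads were expected to be mouse. The glands had 8 and 18 reads on rat Inhba but 14 and 37 on mouse Inhba.

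Host Tgfbi was lower in every core. The cores had 443, 361, 278, 486 and 371 CPM and the rims 1044, 703, 1133, 679.5 and 579.5 CPM, without overlap (log2 -1.07 ± 0.20, adjusted p = 0.00433). All 17 alternatives passed, the highest adjusted p being 0.0160. In lung it had 324, 443, 528 and 260.1 CPM, and 894 CPM in Rat3789, whose level lay among the rims. The difference from rim was -0.84 ± 0.32 with that library (adjusted p = 0.0826) and -1.09 ± 0.25 without it (adjusted p = 0.00682).

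The 2 normal glands differed from each other for most members, which limits them as a reference. The share of all rat genes with a rim mean above the glands was not computed, so the ratios to gland are a description. On total-count scaling Tgfbi had 90.4 and 183 CPM, Tgfb3 22.4 and 42.3, Tgfbr1 13.5 and 21.0, and Ltbp2 1.16 and 11.1, each below the mean of the rims. The rim mean was 8.79 and 4.33 times the 2 glands for Tgfbi, 15.9 and 10.2 times for Tgfbr1, and 52.3 and 5.50 times for Ltbp2. Fst, with 13.8 and 43.0 CPM, was the member whose rim mean lay below both glands.

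Whether tumor cells and host moved differently was tested on the difference between the mouse and the rat gene of the same symbol within each library, a fit chosen after the values were seen. For core against rim 6 of 10 members passed, where 33.3% of 9740 shared genes did. One of the 6 was Fst, at 4.08 ± 0.57 on the log2 scale (adjusted p = 0.00352); since mouse Fst entered through the cores alone, that value is a description and supports nothing. Ltbp1 differed by 2.27 ± 0.42 (0.00847), Ltbp2 by 1.54 (0.0214), Tgfb3 by 1.17 (0.0280) and Tgfbr1 by 0.45 (0.0235), each relatively higher in the tumor cells of the core. Tgfb1 differed the other way, by -0.65 ± 0.18 (0.0320). The falls of Tgfbi in both species differed by -0.06 ± 0.38 (0.920).

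**Figure D4:**
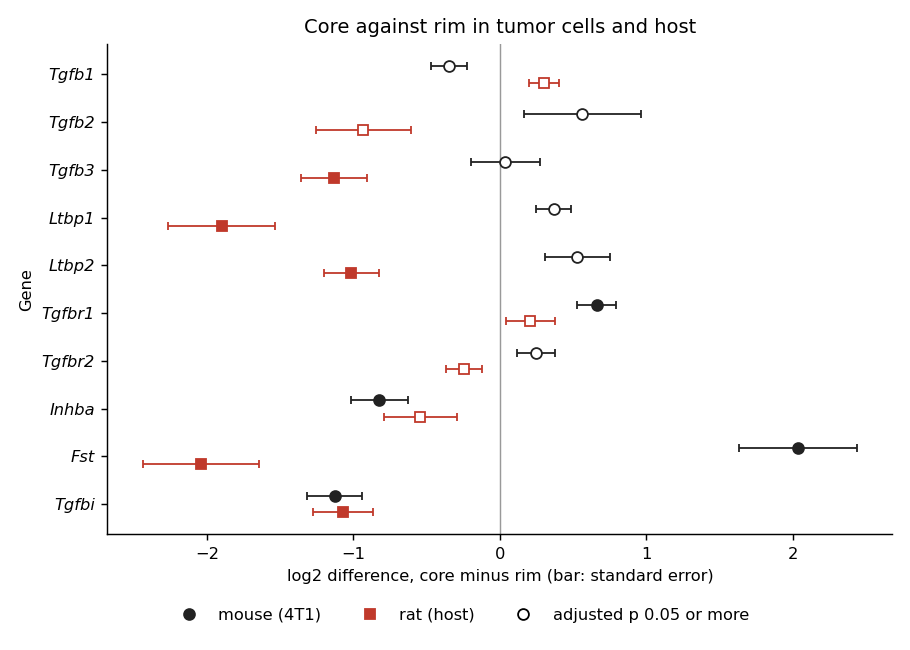
Core minus rim on the log2 scale for the 10 genes in tumor cells (mouse, circles) and host (rat, squares); bars are standard errors and open symbols did not pass at adjusted p under 0.05. Fst lies at 2.03 in mouse and -2.04 in rat, while Tgfbi lies at -1.13 and -1.07.

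For lung against rim the same fit passed for 3 of 10 members, where 21.0% of 9773 shared genes did. These were Tgfb3 (1.34, adjusted p = 0.00296), Inhba (2.32, adjusted p = 0.00973) and Tgfbr2 (0.47, adjusted p = 0.0369), all relatively higher in the tumor cells. Without Rat3789, Tgfbr2 no longer passed (0.44, adjusted p = 0.0544) and Ltbp2 did, relatively lower in the tumor cells (-1.99 ± 0.32, adjusted p = 0.00185). The comparisons of core and of lung share the rim libraries, so their values are given side by side only.

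**Figure D5:**
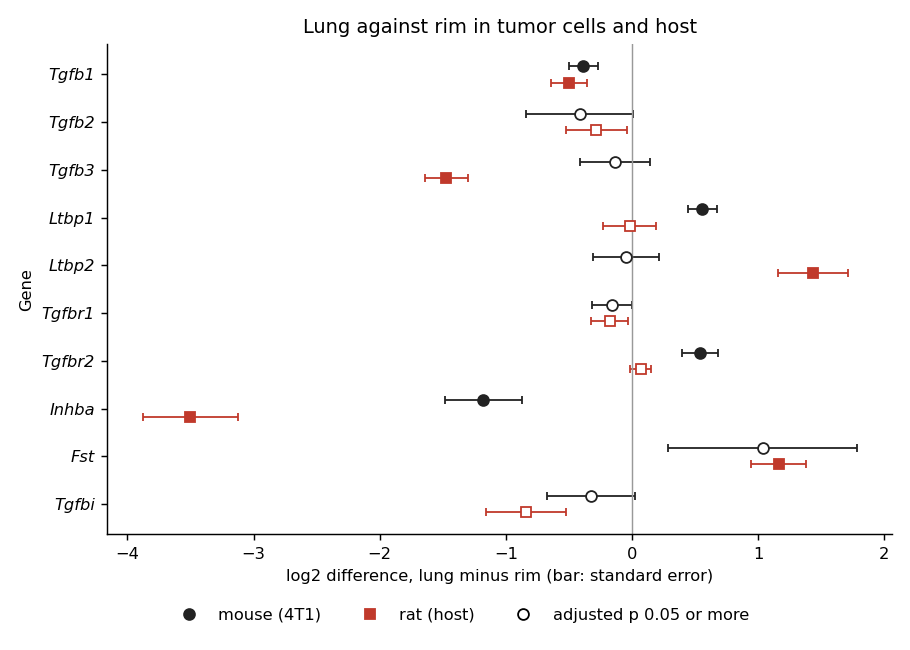
Lung minus rim on the log2 scale for the 10 genes in tumor cells (mouse, circles) and host (rat, squares), with the library of Rat3789 included; bars are standard errors and open symbols did not pass at adjusted p under 0.05. Host Inhba lies lowest, at -3.50, and host Ltbp2 highest, at 1.44.

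In lung, 4 mouse members (Tgfb1, Ltbp1, Tgfbr2 and Inhba) and 5 rat members (Tgfb1, Tgfb3, Ltbp2, Inhba and Fst) passed against rim. Over all genes 20.1% of mouse genes passed (9.91% higher, 10.2% lower) and 22.1% of rat genes (10.5% higher, 11.6% lower). Without Rat3789, 6 mouse members passed, Tgfbr1 and Fst being added (Fst through the lungs alone, as said), and 6 rat members, Tgfbi being added. The background was then 21.9% of mouse genes (10.7% higher, 11.1% lower) and 29.7% of rat genes (15.4% higher, 14.3% lower). On total-count scaling, which shifts the median of rat genes by 0.13, the split of rat genes in lung was 2435 higher and 1255 lower against 1458 and 1607, and that of mouse genes was 1717 and 1108 against 1285 and 1318.

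The wider pathway was read from 5 lists of related genes. Smad7, Skil, Pmepa1 and Tgif1 are in both the SMAD and the target list. Thbs1 and Itgb6 are in both the latency and the target list. Counts of the lists are therefore not independent. In tumor cells their counts are read beside the 19.8% of all mouse genes that passed between core and rim (10.1% higher, 9.63% lower). For lung against rim the share was 20.1% (9.91% higher, 10.2% lower), and 21.9% without Rat3789. A count near those shares is no result about a list. Among the SMADs and their regulators in tumor cells, 15 were tested between core and rim, 4 were higher and 1 was lower (median 0.23). The 4 were Tgif1, a corepressor (0.53 ± 0.14, adjusted p = 0.0324), Smad7, the inhibitory SMAD (0.53 ± 0.12, 0.0174), Smad3, the SMAD of TGF-beta and activin (0.43 ± 0.12, 0.0410), and Smad1, a SMAD of BMPs (0.39 ± 0.11, 0.0437). In lung 4 passed and were lower: Pmepa1 (-1.64 ± 0.23, 0.00101), Skil (-0.88 ± 0.16, 0.00401), Smurf1 (-0.43 ± 0.07, 0.00185) and Smurf2 (-0.33 ± 0.10, 0.0339), which all restrain the pathway. Without Rat3789, 7 of 15 were lower.

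Target genes of the pathway in tumor cells numbered 21 tested between core and rim, with 7 higher and 3 lower (median 0.13). Over all mouse genes 10.1% were higher and 9.63% lower in core, and 9.91% higher and 10.2% lower in lung. Among genes with a mean log2 level of at least 2, the largest differences were those of Ccn2, formerly connective tissue growth factor (1.81 ± 0.40, adjusted p = 0.0155), Ccn1 (1.64 ± 0.25, 0.00433), Id2 (1.48 ± 0.24, 0.00503) and Thbs1 (1.32 ± 0.30, 0.0183). Of the genes that fell, Acta2, a smooth muscle actin of low level (-1.69 ± 0.32, 0.00935), and Cdkn1a, a cell cycle inhibitor (-1.26 ± 0.20, 0.00523), are examples picked with their values in view. The direction was not shared by Tgfbi, which was lower in the same cores. In lung the list had 1 gene higher and 9 lower of 22 (median -0.73; 1 and 13 of 21 without Rat3789). Ccn2 (-2.15 ± 0.54, 0.0175) and Pmepa1 were lower, and Id2 was higher (1.61 ± 0.31, 0.00473).

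The counts that follow for tumor cells stand beside 19.8% of all mouse genes for core and 20.1% for lung. Among genes of latency and activation in tumor cells, 12 were tested between core and rim, 3 were higher and 2 lower. Mmp9, a protease that can release latent ligand, was -3.85 ± 0.29 (adjusted p = 0.000408) and Itgav, the integrin chain that binds the latency peptide, -0.42 ± 0.11 (0.0310), while Thbs1 and Plat (0.79 ± 0.22, 0.0371) were higher. In lung 2 were higher and 2 lower of 13, with Mmp9 at -3.55 ± 0.49 (0.000973) and Plat at 1.53 ± 0.34 (0.0101); 5 were lower without Rat3789. Of the other receptors, 2 of 8 passed, both higher in core: the coreceptors Tgfbr3 (1.41 ± 0.13, 0.000668) and Eng (0.54 ± 0.10, 0.00760). In lung Tgfbr3 was also higher than in rim (1.18 ± 0.29, 0.0157), and Acvr1b, a type I activin receptor (-0.59 ± 0.14, 0.0152), Bmpr2 (-0.49 ± 0.10, 0.00773) and Bmpr1a (-0.25 ± 0.07, 0.0199) were lower; 1 higher and 3 lower of 8 was also the count without Rat3789. Of 5 other ligands and antagonists tested in tumor cells, Bmp1, a protease that processes matrix and LTBP, was the 1 that passed, lower in core (-0.71 ± 0.10, 0.00279) and in lung (-0.86 ± 0.14, 0.00218); 2 of 5 were lower in lung without Rat3789.

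For the host, the lists between core and rim are read beside the 37.6% of all rat genes that passed (20.1% lower) and the lower sum of fibroblast markers in core. Latency and activation genes had 8 of 14 lower and 1 higher (median -1.51), among them Fbn1, the fibrillin to which LTBPs attach (-3.61 ± 0.25, adjusted p = 7.57e-05), Plat (-2.61 ± 0.19, 8.33e-05), Ltbp4 (-2.60 ± 0.19, 8.79e-05) and Mmp14 (-2.0 ± 0.28, 0.00103). Other receptors had 7 of 10 that passed, each lower (median -1.26), among them Tgfbr3 (-2.59 ± 0.27, 0.000263), Bmpr1a (-2.45 ± 0.19, 9.79e-05), Acvrl1 (-1.52 ± 0.10, 7.01e-05) and Acvr1 (-1.46 ± 0.11, 8.21e-05). The main TGF-beta receptors Tgfbr1 and Tgfbr2 did not pass, as given above. The other ligands and antagonists had 6 of 15 lower and 1 higher, with Bmp1 (-2.97 ± 0.17, 5.99e-05), Fstl1 (-2.16 ± 0.17, 0.000102) and Gdf11 (-1.53 ± 0.24, 0.00188) lower and Gdf15, a stress-induced ligand, higher (1.42 ± 0.34, 0.0121).

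Host SMADs and regulators had 5 of 15 that passed between core and rim, each lower: Zfyve9 (-0.88 ± 0.24, adjusted p = 0.0223), Pmepa1 (-0.60 ± 0.13, 0.00841), Smad5 (-0.37 ± 0.12, 0.0382) and Smurf2 (-0.33 ± 0.09, 0.0200) were the largest. Host target genes had 12 of 26 lower and 3 higher (median -0.71). Snai1 (-3.06 ± 0.22, 7.93e-05), Col3a1 (-3.05 ± 0.28, 0.000164), Snai2 (-2.94 ± 0.59, 0.00557) and Timp1 (-2.57 ± 0.23, 0.000158) fell most, and of these Col3a1 is also a fibroblast marker.

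In the lungs, host latency genes had 6 of 15 that passed, each lower (2 higher and 7 lower without Rat3789), with Mmp14 (-2.57 ± 0.36, adjusted p = 0.000774), Lrrc32, which displays latent ligand on cell surfaces (-1.78 ± 0.25, 0.000858), Fbn1 (-1.56 ± 0.30, 0.00485) and Emilin1 (-1.21 ± 0.14, 0.000268) lower. The other ligands and antagonists had 3 higher and 5 lower of 15 (5 and 5 without Rat3789): the BMP antagonist Grem1 was lower (-5.06 ± 0.50, 0.000114), as was Gdf11 (-2.53 ± 0.30, 0.000301), and Bmp6 (4.23 ± 0.40, 9.69e-05) and Bmp4 (2.75 ± 0.76, 0.0260) were higher. Host target genes had 1 higher and 13 lower of 26 (2 and 13 without Rat3789), led by Col1a1 (-3.81 ± 0.64, 0.00225), Snai2 (-3.58 ± 0.36, 0.000122), Col3a1 (-2.52 ± 0.58, 0.0113) and Acta2 (-2.40 ± 0.18, 3.66e-05). SMADs and regulators had 1 higher and 3 lower of 15 (2 and 3 without Rat3789), with the inhibitory Smad6 higher (2.92 ± 0.62, 0.00730) and Pmepa1 (-1.04 ± 0.19, 0.00349), Tgif1 (-0.54 ± 0.10, 0.00289) and Smurf1 (-0.49 ± 0.12, 0.0151) lower. Other receptors had 2 higher and 2 lower of 10 (5 and 2 without Rat3789), with Eng (0.99 ± 0.23, 0.0114) and Acvr1b (0.49 ± 0.11, 0.0112) higher and Acvr1 (-1.09 ± 0.12, 0.000260) lower. These host counts are read beside the 22.1% of all rat genes that passed (10.5% higher, 11.6% lower), and 29.7% without Rat3789. Lung and mammary tumor differ as tissues, beside any effect of tumor cells, and the 2 cannot be told apart for host genes.

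Genes whose log2 level ran most like the 3 members with the largest core differences in each species were found over the 15 libraries, which share 3 tissues and 6 rats, so the correlations are a description. In tumor cells these were Sema7a (r = 0.90), Bach2 (0.86) and Rgs2 (0.82) for Fst, Il4ra (0.86), Gsr (0.81) and Ywhaz (0.80) for Tgfbi, and Aplp1 (0.97), Alcam (0.95) and Sbk1 (0.93) for Inhba. In the host they were Acss3 (0.96) and Meis1 (0.95) for Fst, Bace2 (0.97), Lhfpl6 (0.95) and Mmrn1 (0.95) for Ltbp1, and Lmx1a (0.95), Plppr2 (0.95) and Loxl3 (0.94) for Tgfb3.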

How the data were processed

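The members and the gene lists were chosen with earlier results of these data known. Trim Galore, STAR, featureCounts and limma, and the builds GRCm38 and Rnor_6.0, are named in the submitters' processing notes; versions, species assignment and strand mode were not given in the sources used here. Both deposited tables of tumor and lung hold a normalized signal, read as CPM on the voom scale: every value is a whole read count plus 0.5 times a constant of its library, so reads were recovered within 0.01. For pellet and gland libraries the authors deposited a count of reads per gene of each species. Library names with "in" were read as core and "out" as rim. Gland libraries are not matched to a replicate label. There were 0 unmapped columns.

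The planned test on counts did not suit a normalized signal, so limma 3.58.1 (trend, R 4.3.3, two-sided, Benjamini-Hochberg adjusted p under 0.05) was run on log2 of the deposited signal over all genes reaching 1 CPM in 5 or more of the 10 libraries compared. Fold changes on this scale understate those of genes with few reads. Rat was a block for core against rim, because the same animal gave both; same-rat correlations of deviations were -0.18 to 0.24 for mouse and 0.03 to 0.34 for rat genes. Lung against rim had no block. Alternatives were edgeR 4.0.16, DESeq2 1.42.0, voom, total-count scaling, other filters, 1 added before the logarithm, leaving out rats, all 15 libraries, and subtraction of misplaced reads; the subtraction by the same gene, the fit of mouse minus rat and the counts without Rat3789 were chosen after seeing the data. The scripts were tested on simulated data. Chi-square over degrees of freedom between any replicate pair was 5.70 or more, so no library was counted as a duplicate. All 10 members are named; from each list, up to 4 genes that passed with the largest difference and mean log2 CPM of at least 2 are, and for the 3 members with the largest core difference per species, the 3 most correlated genes. Some genes these rules select are not reported here. Rat coordinates were not used here.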

Additional observations from a re-analysis of the deposited data

Results flagged for a closer look

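In 60 groups of 5 libraries (10 genes, 2 species, 3 tissues), the highest or lowest library stood far from the other 4 in 3, and chance alone gives about 5%, 1 in 20. All 3 were mouse genes in the library labelled lung of Rat3789. Ltbp2 had 892 CPM there and 294 to 399 CPM in the other lungs, Tgfbr1 had 179.8 CPM and 98.5 to 111 CPM, and Fst had 0.178 CPM and 1.25 to 2.24 CPM. The same library had 19.0 CPM of lung epithelial markers, while the other lungs had 8731 CPM or more.

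The log2 differences of tumor cells and host between core and rim were unlike each other by test for 6 genes, given as mouse minus rat: Fst 4.08, Ltbp1 2.27, Ltbp2 1.54, Tgfb3 1.17, Tgfbr1 0.45 and Tgfb1 -0.65. Between lung and rim they were unlike for Inhba (2.32), Tgfb3 (1.34) and Tgfbr2 (0.47). With expected reads of the same gene of the other species subtracted, each of these 9 differences kept its sign and passed: Ltbp1 was 3.44 (adjusted p = 0.0139), Ltbp2 2.80 (0.0210), Fst 4.66 (0.00464) and Inhba in lung 3.45 (0.0234). For Ltbp1, Ltbp2, Fst and Inhba the subtraction took its larger shares on the side that widens the difference, so passing was no check of them. Mouse Fst was tested only because its cores reached 1 CPM, so its value is a description.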

How the results depend on the processing

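No result changed sign while passing the test. Leaving out 1 rat at a time gave 1260 to 2422 mouse genes for core against rim (2585 with all), 1323 to 2809 mouse genes and 1 to 6 members for lung against rim (2603 and 4), and 1509 to 4077 rat genes for lung against rim (3065). Without Rat3876 and Rat3877 together, 3392 rat genes and 3 members passed for core against rim (5092 and 5), 1071 mouse genes and 1 member for lung against rim, and 1072 rat genes and 3 members (3065 and 5). Without the replicate block, 2630 mouse and 5049 rat genes passed between core and rim, and host Tgfb1 was added (6 members); with a replicate block over the 4 rats with both tissues, 2463 mouse and 3930 rat genes passed between lung and rim, and host Tgfbi was added (-1.0, adjusted p = 0.00617). Neither fit on pairing changed another member's call. Members that passed in some alternatives and not in others are named beside their values above; the causes were not tested. Depth limits mouse Fst (3 to 63 reads) and host Fst in core (6 to 25 reads) most.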
